A study of Mus musculus with 5 samples.

Results

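The Umod and Acsm locus is a window of 360 kb on mouse chromosome 7, from 126590001 to 126950000 in the deposited coordinates (mm9), that holds 5 named genes, Umod, Acsm5, Acsm2, Acsm1 and Acsm3, of the 21900 protein-coding genes in the RefSeq table. The window was chosen by the read counts in 2 kb bins and the peak positions of these same libraries, for where they lay in kidney and in liver, so the values below describe that pattern and test nothing. The window makes up 180 of 1229398 bins of 2 kb that held a read in any library. The assay was ChIP-seq of RNA polymerase II, which gives reads where the enzyme was crosslinked to DNA, and the study asked which promoters are active in which adult tissue. Chromatin came from whole, freshly dissected kidney, liver, brain, lung and spleen of adult mice of strain FVB, with no treatment named and 1 library per tissue. All 5 libraries used the same Abcam polymerase antibody, no input library was used here, and the labels do not say how many animals gave each tissue. Without replicates there is no test between tissues, and every interval below is a 95% exact interval of read counting only. In whole tissue, fewer cells of a type and less polymerase per cell cannot be told apart.

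Umod encodes uromodulin, the protein that epithelial cells of the thick ascending limb of the nephron secrete into urine. The ACSM proteins are mitochondrial medium-chain acyl-CoA synthetases. They join medium-chain fatty acids, and for some members benzoate-like acids, to coenzyme A, a step that comes before oxidation or conjugation to glycine in kidney and liver. Polymerase is commonly densest where a gene starts and again near and past its 3′ end, with a lower level in between.

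The read files carry no gene names, and the RefSeq table is on assembly GRCm38, so stretches of reads were set against genes by their order along the chromosome. In the table the order is Umod, Pdilt, Acsm5, Acsm2, Acsm1, Acsm4, Thumpd1, Ppp1ccb and Acsm3, with Umod, Pdilt and Thumpd1 on the minus strand and the others on the plus strand. Distances within each assembly gave a check of this order that needs no conversion of positions. The highest peaks of the Acsm5 and Acsm1 stretches lay 91510 bp apart, against 91547 bp between the annotated starts of these genes on GRCm38. The highest peaks of the Acsm3 and Acsm1 stretches lay 143070 bp apart, against 143111 bp between the starts. For Acsm2 the table lists 2 starts, and the highest Acsm2 peak lay 56100 bp from the Acsm1 peak, against 56104 bp for the downstream start and 63472 bp for the upstream start. These 3 spacings differed from those of the starts by 37, 41 and 4 bp, and by 7372 bp for the upstream Acsm2 start. By its spacing that upstream start lies before the Acsm2 stretch, so no peak of the stretch could match it. Umod did not match in this way: its highest peak lay 153585 bp from the Acsm1 peak, against 138550 bp between the starts, a difference of 15035 bp. Of the 19 Umod kidney peaks, the one at 126622676 was picked afterwards as the nearest to the spacing of the start, at 138635 bp, so it is no check of the order.

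Promoter sequences of 4 members are shown, as examples of each pattern of reads at the start: Umod and Acsm2 with kidney reads, Acsm1 with reads in both tissues and Acsm3 with liver reads. Each is the RefSeq window of 250 bases before to 50 bases after the annotated start on GRCm38.p6, in the direction of transcription, and its coordinates are not those of the reads. Capitals mark matches to the letters of a motif on either strand. The windows are chr7:119479213-119479512 on the minus strand for Umod, chr7:119561458-119561757 on the plus strand for the downstream Acsm2 start, chr7:119617562-119617861 on the plus strand for Acsm1 and chr7:119760673-119760972 on the plus strand for Acsm3.
Umod: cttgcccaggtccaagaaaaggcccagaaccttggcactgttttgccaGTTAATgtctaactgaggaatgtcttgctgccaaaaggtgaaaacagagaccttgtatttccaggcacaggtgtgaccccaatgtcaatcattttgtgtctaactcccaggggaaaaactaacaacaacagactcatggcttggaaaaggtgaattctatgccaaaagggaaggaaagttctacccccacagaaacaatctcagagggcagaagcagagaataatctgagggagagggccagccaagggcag
Acsm2 downstream start: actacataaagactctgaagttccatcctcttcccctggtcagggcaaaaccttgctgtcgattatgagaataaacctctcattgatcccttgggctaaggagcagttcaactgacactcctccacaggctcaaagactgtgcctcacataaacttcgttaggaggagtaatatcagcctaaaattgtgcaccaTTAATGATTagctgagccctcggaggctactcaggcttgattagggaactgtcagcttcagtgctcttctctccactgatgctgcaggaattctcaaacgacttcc
Acsm1: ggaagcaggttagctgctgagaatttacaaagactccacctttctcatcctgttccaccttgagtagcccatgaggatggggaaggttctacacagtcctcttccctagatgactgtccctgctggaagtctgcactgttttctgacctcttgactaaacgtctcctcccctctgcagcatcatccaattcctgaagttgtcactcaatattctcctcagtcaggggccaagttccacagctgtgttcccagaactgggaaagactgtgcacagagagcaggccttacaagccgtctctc
Acsm3: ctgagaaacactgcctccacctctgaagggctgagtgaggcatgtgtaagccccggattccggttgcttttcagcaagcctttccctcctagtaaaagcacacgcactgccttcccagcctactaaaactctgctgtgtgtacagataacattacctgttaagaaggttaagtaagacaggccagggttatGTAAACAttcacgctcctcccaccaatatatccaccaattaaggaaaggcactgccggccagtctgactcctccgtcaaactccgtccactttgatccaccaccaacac

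In these windows 5 short motifs were searched on both strands, the choice being made after the sequences had been seen. The Umod window held GTTAAT, the half-site of the kidney and liver factor HNF1, at -202 to -197 counted from the annotated start, which is 0, and 7.10% of 32851 promoters of the same length held it. The downstream Acsm2 window held TTAATNATT, most of the core of the full HNF1 site, at -56 to -48, and 1.47% of promoters held it. The Acsm3 window held TGTTTAC, a FOX factor motif, on the opposite strand at -59 to -53, and 3.65% of promoters held it. The Acsm1 and Acsm5 windows held none of the 5, and none of the windows held CAAAGTCCA, an HNF4 motif found in 0.475% of promoters. The upstream Acsm2 window, whose start by spacing lies before the Acsm2 stretch, held TATAAA, found in 13.6% of promoters, as well as GTTAAT and TTAATNATT. Umod held 0 CG pairs, Acsm5 1, the upstream Acsm2 start 1, Acsm1 2 and the downstream Acsm2 start 4, against a median of 7 over all promoters, which Acsm3 equalled. A match is a run of letters and does not show that a factor bound there.

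Kidney had the most polymerase reads in the window and brain the fewest. The window held 7104 reads in kidney, 4534 in liver, 1138 in brain, 1726 in lung and 1971 in spleen. After scaling between libraries, kidney and liver still came first, at 6510 and 3881 reads. A bin was called occupied where it held at least 3 times the median bin of its library, which was 8 reads in kidney, 10 in liver, 6 in brain, 7 in lung and 10 in spleen. Kidney had 90 occupied bins, against a background of 8.8% of kidney bins in the whole genome, and liver had 40, against 4.58%. Brain had 3 (background 10.9%), lung 16 (6.92%) and spleen 0 (1.59%). Of the 120 kidney peaks in the window, 112 lay in stretches set against the 5 genes, as did 52 of 53 liver peaks. Brain had 3 peaks in the window, lung 10 and spleen 3, of which 0, 8 and 1 lay in those stretches. Windows of the same length on both sides were nearly empty of liver peaks: the one before held 2 kidney peaks and 0 liver peaks, and the one after 18 kidney peaks and 1 liver peak.

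**Figure D1:**
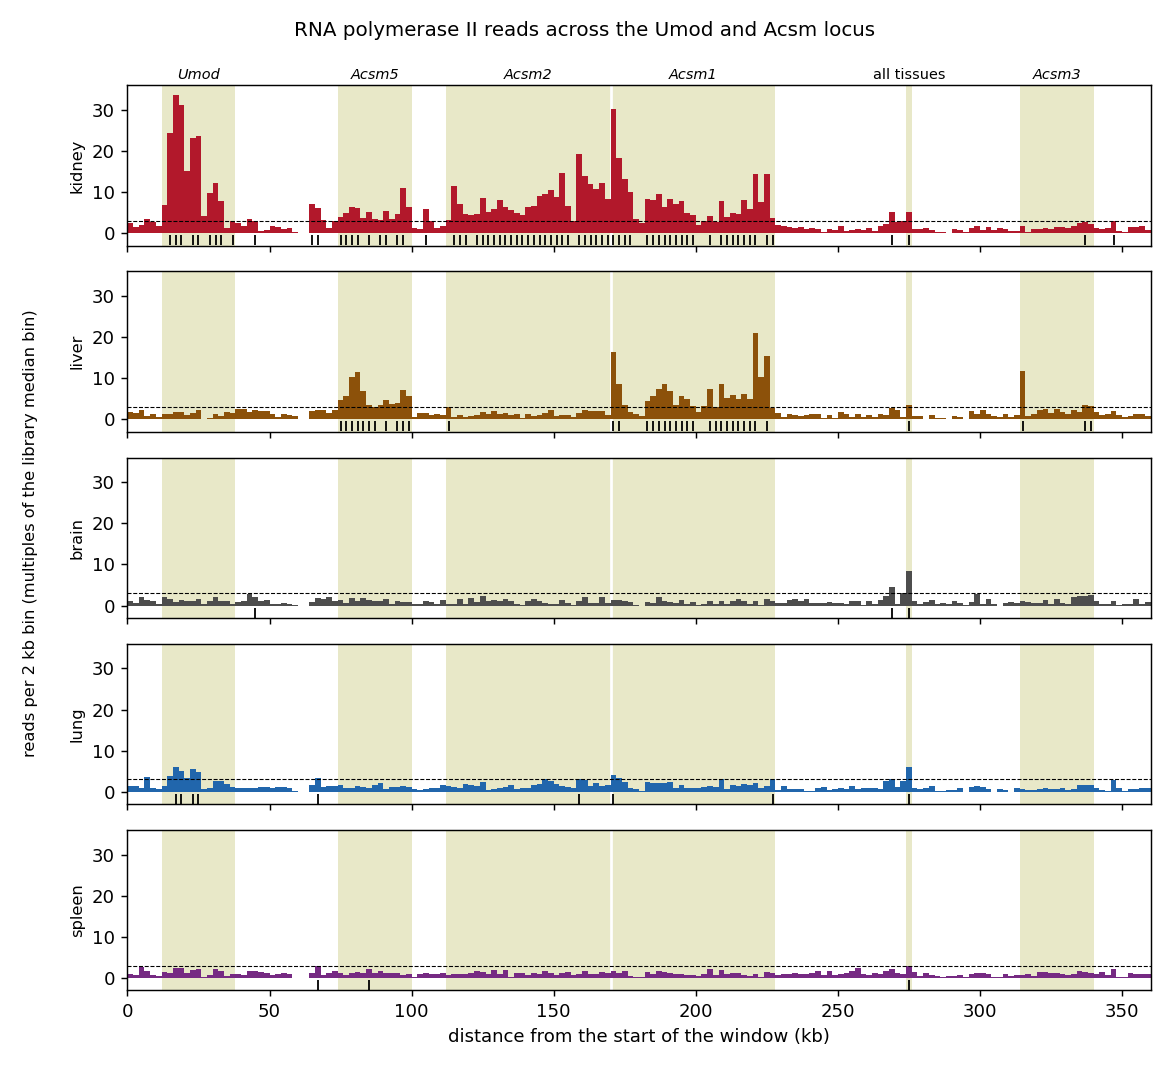
Reads per 2 kb bin as multiples of each library's median bin (y axis) along the 360 kb window (x axis, kb from its start), 1 panel per tissue. Ticks mark bins with a peak, the dashed line is 3 times the median, and shading marks the stretches set against genes and the bin with a peak in every tissue. Kidney fills the Umod, Acsm5, Acsm2 and Acsm1 stretches, liver the Acsm5 and Acsm1 stretches and the first bin and last 2 bins of Acsm3.

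The combination of kidney and liver differed between members, and some members shared one. Umod and Acsm2 had a high read level in kidney and close to background in liver, Acsm5 and Acsm1 had high levels in both, and Acsm3 had its highest level in liver. As mean reads per bin over the library median, kidney stood at 15.1 for Umod, 8.13 for Acsm2, 7.94 for Acsm1, 5.26 for Acsm5 and 1.53 for Acsm3. The intervals of Acsm2 (7.77 to 8.50) and Acsm1 (7.58 to 8.31) overlapped, and no order is claimed between these neighbours in kidney. In liver the order was Acsm1 at 6.33, Acsm5 at 5.75, Acsm3 at 2.85, Acsm2 at 1.35 and Umod at 1.30. The liver intervals of Acsm1 (6.04 to 6.62) and Acsm5 (5.34 to 6.17) overlapped, as did those of Acsm2 and Umod. Overlap of intervals does not show that levels are equal, and these pairs were not compared directly. Brain lay between 0.879 for Acsm1 and 1.32 for Acsm3, and spleen between 1.02 for Acsm1 and 1.46 for Umod.

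**Figure D2:**
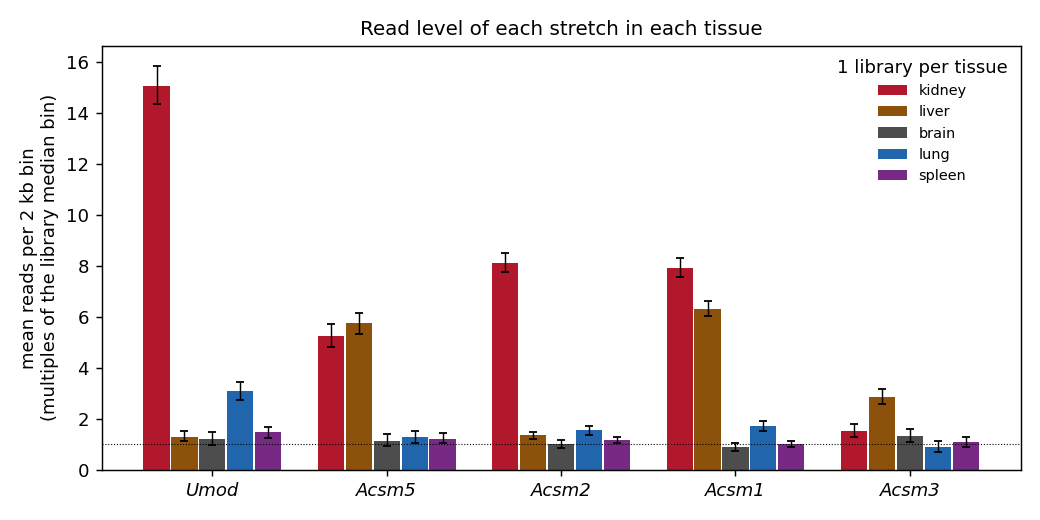
Mean reads per 2 kb bin as multiples of the library median bin (y axis, from 0) for the 5 stretches in each tissue, with 95% exact Poisson intervals of counting as bars and a dotted line at 1. Kidney stands highest at Umod, at 15.1, and liver at Acsm1, at 6.33.

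Umod was occupied in kidney and had no liver peak. Its stretch ran from 126602001 to 126628000 and held 1569 reads and 19 peaks in kidney and 169 reads and 0 peaks in liver. Brain held 94 reads, lung 280 and spleen 190. After scaling, kidney was 9.94-fold over liver (8.47 to 11.7). With the median bin of each library subtracted the ratio was 40.2, since liver was near its background here. Of its 13 bins, 12 were occupied in kidney and 0 in liver, the kidney count following from its definition as a kidney block. At the lower edge the first bin inside held 54 kidney reads, against 14 in the bin before it. Kidney exceeded liver at least 4-fold in 11 bins and each of the 4 other tissues in 8.

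Within the Umod stretch the kidney reads were heaped towards its downstream end. The gene lies on the minus strand, so lower positions are downstream. Where Umod ends in these coordinates was not tested. The next gene by order on that side is Gp2, also on the minus strand. The last 8 kb of the stretch in the direction of transcription held 49.0% of its kidney reads, at 192 per bin. At the other end, the 3 bins from 126618001 to 126624000, the last of which holds the peak nearest to the spacing of the start, held 78, 98 and 62 kidney reads, and the 2 bins upstream of them 10 and 24. The bin from 126606001 to 126608000 held 269 reads in kidney and 17 in liver. It was the fullest kidney bin of the window, and 162 of 1192448 kidney bins of the genome, this one included, held at least as many. The 3 Umod peaks with the most kidney reads within 250 bp, at 126607726, 126609176 and 126606026, held 103, 68 and 67 kidney reads, against 7, 5 and 1 liver reads. The peak nearest to the spacing of the start held 36 kidney and 4 liver reads. In kidney the sequence 1 to 3 kb downstream of it held 108 reads and that 1 to 3 kb upstream 10, a ratio of 10.8 (5.65 to 23.2), while in liver these were 15 and 17 reads.

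The lung library held reads of the same shape over Umod. Lung stood at 3.08 times its median bin (2.73 to 3.46) there, against 1.30 in liver, 1.21 in brain and 1.46 in spleen, and it had 5 peaks and 6 occupied bins in the stretch. The 5 fullest kidney bins of Umod, with 269, 250, 196, 189 and 185 reads, held 42, 36, 27, 34 and 38 in lung. Over the 13 bins of Umod the Pearson correlation of reads with kidney was 0.926 in lung, 0.443 in liver, 0.160 in brain and 0.721 in spleen. Over all 180 bins of the window it was 0.751 in lung, 0.354 in liver, 0.141 in brain and 0.371 in spleen. Over the 167 bins outside Umod it was 0.588 in lung, 0.561 in liver, 0.147 in brain and 0.239 in spleen. These bins share mappability and genomic position, so the correlations are descriptions. Kidney remained 5.82-fold over lung in Umod (5.12 to 6.63). Lung was 2.71-fold over brain at Umod (2.14 to 3.47), 2.07-fold at Acsm1 (1.70 to 2.52), 1.65-fold at Acsm2, 1.18-fold at Acsm5 (0.885 to 1.57) and 0.717-fold at Acsm3. Over spleen, whose scaling factor was the lowest of the 5, lung was not higher after scaling. The lung over spleen ratio was 0.872 at Umod (0.723 to 1.05), 0.694 at Acsm1, 0.558 at Acsm2, 0.428 at Acsm5 and 0.342 at Acsm3. The order of lung and spleen at Umod depends on the scaling. Raw reads there were 280 in lung and 190 in spleen, and factors by total reads were 0.867 for lung and 1.06 for spleen. With those factors lung stood above spleen at Umod. Whether these lung reads came from lung cells was not tested.

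Acsm2 was the other member occupied in kidney with little in liver. In mouse it is known as a kidney gene of the proximal tubule. Its stretch, from 126702001 to 126760000, held 1886 reads and 41 peaks in kidney and 392 reads and 1 peak in liver. Brain held 173 reads, lung 314 and spleen 333. Kidney was 5.15-fold over liver (4.62 to 5.76), and 28 of 29 bins were occupied in kidney and 0 in liver. The stretch is the part of a kidney block that ends where liver became occupied. These counts therefore follow largely from how the stretch was cut, and the ratio describes that cut. Subtracting the median bin gave a ratio of 17.4. Kidney exceeded liver at least 4-fold in 21 of the 29 bins and each of the 4 other tissues in 9.

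The start of Acsm2 was sharp in kidney. The peak at 126705211 held 70 kidney reads within 250 bp, against 2 in liver, 2 in brain, 1 in lung and 2 in spleen. It matched the downstream of the annotated starts by spacing. The upstream start falls before the stretch by spacing. Kidney-occupied bins before the stretch, from 126694001 to 126698000, held 71 kidney and 25 liver reads and 1 kidney peak. By spacing from the Acsm1 peak, the upstream start falls in the bin of these from 126696001 to 126698000. That bin held 24 kidney and 10 liver reads and 0 kidney peaks. Whether the reads of these bins came from that start was not tested. The sequence 1 to 3 kb past the peak at 126705211 held 64 kidney reads, against 27 at 1 to 3 kb before that peak, a ratio of 2.37 (1.49 to 3.87). The first 20 kb of the stretch averaged 50.4 kidney reads per bin, the next 20 kb 58.0 and the last 18 kb 89.1, where 632 of the 802 reads lay in the final 14 kb, which cannot be assigned to Acsm2 or Acsm1. Liver averaged 13.5, 12.1 and 15.1 in the same parts. The single liver peak lay in the first bin, with 25 kidney and 29 liver reads, before the start-side peak.

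A last part of the kidney-occupied stretch, 14 kb long from 126746001 to 126760000, lay just before the Acsm1 start. It held 632 kidney and 116 liver reads, 5.83-fold (4.78 to 7.17), after a dip to 23 kidney reads in its first bin. In that bin liver held 5 reads, brain 1, lung 6 and spleen 8, also fewer than in the bins on either side. The next bin held 154 kidney and 15 liver reads, the fullest kidney bin of the stretch, with peaks at 126748461 (51 kidney and 2 liver reads) and 126749711 (51 and 7). Order along the chromosome does not show whether this part belongs to Acsm2 or to Acsm1. Without it the Acsm2 ratio was 4.86 (4.27 to 5.56).

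Acsm1, which encodes an enzyme that accepts butyrate and other medium-chain acids, was occupied in both tissues. Its stretch, from 126760001 to 126818000, held 1842 reads and 40 peaks in kidney and 1835 reads and 35 peaks in liver. Brain held 153 reads, lung 347 and spleen 296. The kidney over liver ratio was 1.07 (1.01 to 1.15). Of 29 bins, 26 were occupied in kidney and 24 in liver. Kidney was 11.4-fold over brain (9.65 to 13.5) and liver 10.6-fold over brain (8.98 to 12.6).

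Along the Acsm1 stretch the lead passed to liver. In the first 20 kb, which include sequence before the start-side peak, kidney was 1.61-fold over liver (1.45 to 1.79), with 880 and 585 reads. In the next 20 kb the ratio was 0.927 (0.812 to 1.06), and in the last 18 kb it was 0.758 (0.678 to 0.848), with 542 kidney and 765 liver reads. The start-side peak at 126761311 held 98 kidney and 126 liver reads within 250 bp, a ratio of 0.833 (0.633 to 1.09), against 2 reads in brain, 13 in lung and 5 in spleen. A kidney peak 1150 bp before it, at 126760161, held 51 kidney and 6 liver reads. In the sequence 1 to 3 kb before the start-side peak kidney held 93 reads and liver 10, and in that 1 to 3 kb after it 129 and 67. The fullest liver bin of the window, from 126810001 to 126812000, lay near the far end of the stretch, with 116 kidney and 210 liver reads, and 1315 liver bins of the genome, this one included, held at least as many.

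**Figure D3:**
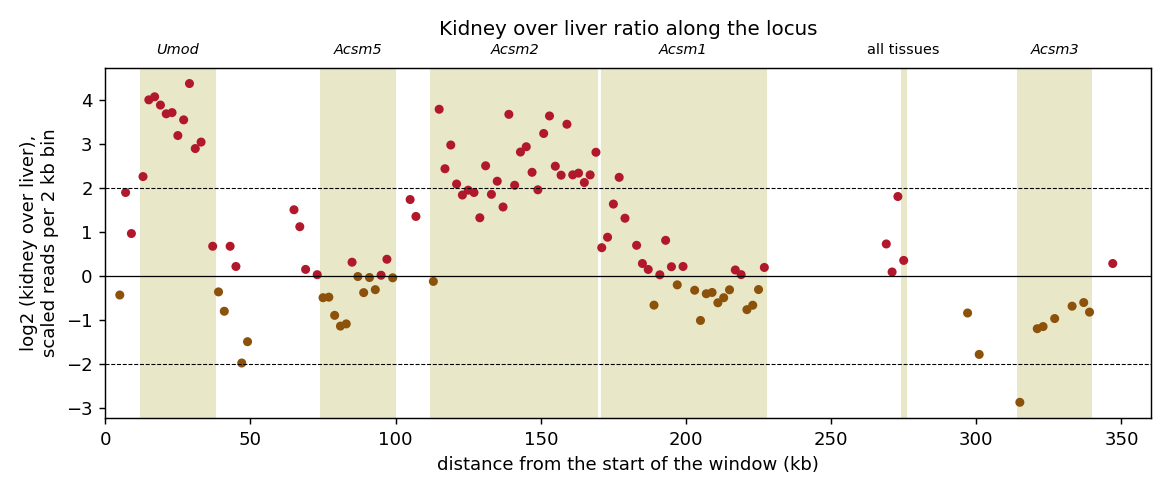
Log2 of the kidney over liver ratio of scaled reads in each 2 kb bin with at least 20 reads in kidney or liver (y axis) along the window (x axis, kb from its start). Dashed lines are 4-fold in either direction, and shading is as in the plot of reads along the window. Counts under 3 were set to 3. Points lie above the upper line across most of Umod and much of Acsm2, fall through Acsm1 to below 0, and cross the lower line once, at the first bin of Acsm3.

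Acsm5 was occupied in both tissues, with more liver reads at its start. Its stretch ran over the same bins in both, from 126664001 to 126690000, and held 547 reads and 11 peaks in kidney and 747 reads and 13 peaks in liver. Brain held 89 reads, lung 115 and spleen 159. The kidney over liver ratio was 0.784 (0.701 to 0.876). It was 0.552 (0.463 to 0.655) in the first 10 kb, 0.999 (0.787 to 1.27) in the next 8 kb and 1.07 (0.878 to 1.30) in the last 8 kb. The first 10 kb include bins before the start-side peak. Those from 126664001 to 126668000 held 32 and 39 kidney reads and 48 and 58 liver reads. The start-side peak at 126669801 held 28 kidney and 86 liver reads, a ratio of 0.349 (0.219 to 0.539). The peak near the far end, at 126688101, held 39 kidney and 43 liver reads. No bin of Acsm5 reached 4-fold in either direction.

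Acsm3 had a sharp site at its start in liver and a lower level along the rest of the stretch. Acsm3 is also known as SA, a gene first studied in hypertensive rats. In the stretch from 126904001 to 126930000 kidney held 159 reads and 1 peak and liver 370 reads and 3 peaks, a kidney over liver ratio of 0.460 (0.380 to 0.555). Brain held 103 reads, lung 81 and spleen 140. The bin at its start held 15 kidney and 117 liver reads, against 7 in brain, 5 in lung and 7 in spleen. The peak in it, at 126904381, held 6 reads in kidney, 87 in liver, 0 in brain, 2 in lung and 3 in spleen within 250 bp. By the one-sided 95% limit a count of 0 allows up to 3 reads. In liver the peak was 23.2 times as dense per kb as the sequence 1 to 3 kb past it, against 7.51 times at Acsm1 and 2.91 times at Acsm5. That sequence held 15 liver reads at Acsm3, near the liver median of 10 per 2 kb bin, against 67 at Acsm1 and 118 at Acsm5. No interval was computed for these density ratios, and the peaks were picked for their reads. Without its first bin the stretch held 144 kidney and 253 liver reads, 0.609 (0.493 to 0.751), and liver bins there held 9 to 34 reads. At the far end, the bins from 126926001 to 126930000 were also occupied in liver, with 34 and 32 reads, against 21 and 17 in kidney. As multiples of the library median these bins stood at 3.4 and 3.2 in liver, 2.625 and 2.125 in kidney and 2.33 and 2.67 in brain. Lung stood at 1.57 and 1.71 and spleen at 1.4 and 1.1. Whether these bins belong to Acsm3 or to Eri2, the next gene by order, was not tested. The liver peaks of these bins, at 126926971 and 126929671, held 7 and 6 kidney reads within 250 bp, against 20 and 17 in liver.

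**Figure D4:**
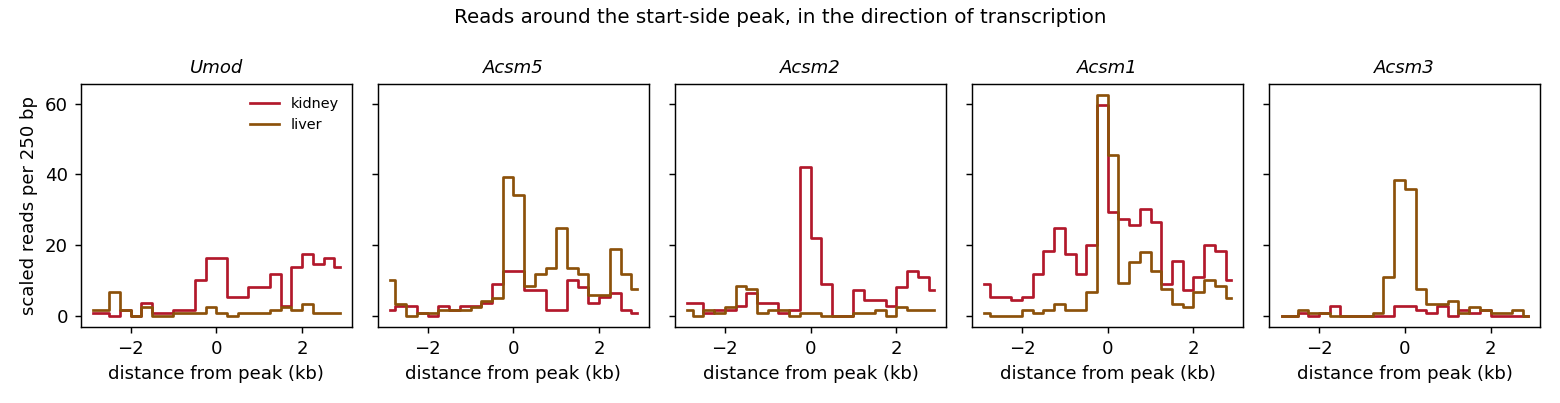
Scaled reads per 250 bp (y axis) in kidney and liver within 3 kb of the start-side peak of each member (x axis, kb in the direction of transcription). Liver alone peaks at Acsm3 and kidney alone at Acsm2, both peak at Acsm1, liver exceeds kidney at Acsm5, and at Umod kidney reads spread downstream.

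Counted over bins, kidney led liver far more often than the reverse. Of 97 bins with at least 20 kidney reads, 33 were at least 4-fold over liver, against a background of 4.9% of such bins in the genome. Of 69 bins with at least 20 liver reads, 1 was at least 4-fold over kidney, against 4.56%, and it was the first bin of Acsm3. Kidney was at least 4-fold over each of the 4 other tissues in 18 bins (background 0.521%) and liver in 1 (background 1.61%). Since the locus was picked for this contrast, nothing is read from these shares. The Umod bin from 126618001 to 126620000 had the largest kidney over liver ratio, 20.9 with counts under 3 set to 3, from 78 kidney and 4 liver reads, and 75 bins of the genome, this one included, were led by kidney at least as strongly. The flanks had 1 kidney-led bin each, and the windows before and after had 1 and 0 liver-led bins.

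The other genes of the locus had few peaks. Acsm4, Thumpd1 and Ppp1ccb lie between Acsm1 and Acsm3 by order, and which reads belong to which of them was not tested. Between the Acsm1 stretch and the next occupied kidney bin there were no peaks in 20 bins, and bins held 2 to 18 reads in kidney and 4 to 19 in liver. That bin, from 126858001 to 126860000, held 42 reads and 2 peaks in kidney, 27 reads and 0 peaks in liver and 27 reads and 1 peak in brain, with 21 reads in lung and 22 in spleen and no peak in either. A later bin, from 126864001 to 126866000, was the only bin of the window with a peak in every tissue. It held 42 reads in kidney, 35 in liver, 50 in brain, 42 in lung and 29 in spleen. Its kidney over liver ratio was 1.28 (0.801 to 2.07). Between it and Acsm3 none of the 19 bins held a peak. Between Umod and Acsm5, where Pdilt lies, a kidney block from 126654001 to 126660000 held 130 kidney and 69 liver reads, with 2 kidney peaks and 0 liver peaks. It also held 25 reads in brain, 42 in lung and 47 in spleen, with 1 lung peak and 1 spleen peak. In its bin from 126656001 to 126658000 scaled reads were 44.9 in kidney and 43.2 in spleen.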

How the data were processed

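The authors deposited, for each tissue, a list of aligned reads (chromosome, start, end, strand) and a list of peak positions with no width, score or p-value. Bowtie was used, per the submitters' processing notes; the sources used here do not give its settings, its treatment of reads with several hits, the peak caller or the build. The Acsm genes are paralogs, so multiply matching reads could be shared between them. mm9 is the build named for the window; the last chromosome 7 reads lay past the last gene of the GRCm38 table, so that table gave gene order, spacing and promoters only, and all 5 members matched.

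Libraries held 10292262 to 14964934 reads of 35 bases (4 to 15 lines of other lengths left out), and 4.51% to 8.87% of reads repeated a position and strand. Reads were counted at their 5′ ends in 2 kb bins. Scaling factors, medians of ratios over 8222 merged peak regions (each tissue at 20 reads or more), were 1.09 for kidney, 1.17 for liver, 1.03 for brain, 1.13 for lung and 0.671 for spleen. Blocks join occupied bins of 1 tissue over gaps of up to 1 bin. Stretches are blocks of at least 3 occupied bins; the longest kidney block was divided where liver became occupied, and the Acsm3 stretch spans the liver-occupied bins past the site shared by all tissues. For calls of led bins, counts under 3 were set to 3. Intervals of ratios come from the exact (Clopper-Pearson) binomial interval of the share of raw reads in the tissue on top of the ratio, and treat reads as independent. Named peaks are the 3 per stretch with the most reads in the tissue with more scaled reads. Members, lists and stretch rules were chosen with earlier results of these data known. The calling was run on simulated counts with counting error only, so it could not test variation between libraries or animals. Alternatives covered scaling, repeated reads, read position, bins, thresholds, gaps, background and peak lists. Python 3.11.15 was used with SciPy 1.17.1, NumPy 2.4.6, Matplotlib 3.10.9 and pandas 2.3.3.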

Additional observations from a re-analysis of the deposited data

How the results depend on the processing

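Of 86 alternative values of 21 results, 58 stayed within the interval or within 1.5 times the main count and 28 did not. A turned direction could be called only for the kidney over liver ratios of the 5 members, and 0 turned. Stretch ratios with brain, lung or spleen were not among the 21 results. Scaling by total reads, which does not enter occupied bins, counting 1 read per position and strand and shifting reads by 100 bp kept the kidney over liver ratio of all 5 members within its interval. Subtracting the median bin gave 40.2 for Umod, 17.4 for Acsm2 and 0.245 for Acsm3.

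Occupied bins numbered 172 in kidney, 76 in liver, 15 in brain and 9 in spleen with 1 kb bins, of which there are more. At 5 times the median, liver had 22, brain 1 and lung 4. Spleen had 1 with shifted reads and 1 with the grid moved by 1 kb. Kidney-led bins over liver numbered 14 at 8-fold and 53 with 1 kb bins, and over each other tissue 0 and 31. Liver-led bins over kidney numbered 2 with shifted reads and 0 at 8-fold, and over each other tissue 0 at 8-fold. Joining gaps of up to 3 bins left 2 kidney blocks, against 4. Peaks with at least 20 reads within 250 bp numbered 62 in kidney, 31 in liver, 1 in brain, 2 in lung and 0 in spleen, and lists of equal length, 31594 peaks each, left 74 in kidney, 1 in brain and 3 in lung.

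No paired analysis was possible because each tissue had 1 library. Differences between animals were not measured, PCR copies could not be told from separate molecules, and genes were placed by order and spacing, and Umod by order alone, not by an annotation of the build of the reads. Among tissues that all held 3 reads or fewer in a peak window, differences were not detectable at this depth.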
